A study of Mus musculus with 21 samples.

Results

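The data described here are 6 of 21 microarrays of mouse left ventricle. The 6 hearts came from mice carrying the Tg(αMHC-MerCreMer) transgene, 3 killed 4 days after a single intraperitoneal injection of tamoxifen at 40 mg/kg and 3 killed 4 days after a single control injection. They were chosen by their titles alone, and each group held 1 male and 2 female mice aged 9 to 13 weeks. The other 15 arrays served to estimate the spread or as a yardstick. They were MerCreMer mice after 4 daily tamoxifen injections (3) or 4 daily control injections (3), and wild-type mice after 4 tamoxifen (3) or 4 control (6) injections at the same dose, age and delay. The control-injected MerCreMer mice carried the same transgene as the treated ones, so the comparison is of tamoxifen in mice that all hold the Cre. The labels name no floxed allele in any group. What the control injection contained is not given in the sources used here, and wild-type mice after 1 injection were not analysed here.

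In MerCreMer mice cardiomyocytes make a Cre recombinase under the control of the promoter of α-myosin heavy chain, flanked on both sides by mutated ligand-binding domains of the oestrogen receptor. The fusion protein stays in the cytoplasm until a ligand such as tamoxifen binds it and lets it enter the nucleus, where Cre recombines DNA between loxP sites. Repeated tamoxifen doses in these mice are known for a transient cardiomyopathy, so the shortest effective treatment is of practical interest. The comparison asks how far the ventricular transcriptome moved after the single dose.

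The 6 arrays carried the RNA their labels name. Cardiomyocyte markers averaged 12.06 to 12.10 log2 units on them, and the sex-linked genes matched the labelled sex of each mouse. Arrays of the same group correlated at 0.984 to 0.989 after the control injection and at 0.988 to 0.990 after tamoxifen. The MerCreMer 4 tamoxifen arrays were looser, at 0.918 to 0.974, and were therefore left out of the model for the single dose. One of them, replicate 3, is labelled female but held Xist at 3.12 and the Y-linked genes Kdm5d, Eif2s3y and Uty at 1.93 to 2.54, which goes against its label, so counts resting on it are given with and without it, as are the 4-injection changes of single genes that move by over 1.5 times without it. A pair of control probe sets without a gene split the 21 arrays into 8 brighter and 13 dimmer ones; each MerCreMer group held 2 brighter arrays and 1 dimmer array, and no label says what the split is. Atrial markers varied between hearts of 1 group: Myl7, the atrial myosin light chain, lay at 4.03, 4.05 and 8.93 in the controls and at 4.30, 8.36 and 7.08 after tamoxifen. Whether how much atrial tissue was taken bears on any other gene was not tested.

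A single tamoxifen injection was followed by 1 called gene. Ptprn2, which encodes phogrin, a receptor-type tyrosine phosphatase of dense-core vesicles, rose after it. It was the only one of 11384 genes tested (0.00878%) with a limma adjusted p under 0.05, and no lower gene was called. In all, 819 genes (7.19%), Ptprn2 included, had an unadjusted p under 0.05, 532 of them higher (4.67%) and 287 lower (2.52%). The next smallest adjusted p over all genes was 0.0907.

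The log2 value of Ptprn2 was 4.65, 4.93 and 4.63 on the 3 control arrays and 5.97, 5.85 and 5.92 on the 3 tamoxifen arrays. The groups did not overlap, which was so for 10.4% of all genes, and the change was 1.18 log2 units (95% interval 0.89 to 1.46, limma adjusted p = 0.00176, n = 3 per group). All 3 tamoxifen arrays also lay above every other array of the series: the 4-control MerCreMer hearts were at 4.56 to 4.84, the wild-type controls at 4.76 to 5.47 and the wild-type tamoxifen hearts at 4.82 to 4.97. After 4 tamoxifen injections the 3 arrays were at 5.58, 4.78 and 4.80. That 4-injection change of 0.37 was not called, and it was smaller than the single-dose change by 0.80 (SE 0.233, limma adjusted p = 0.0496). Ptprn2 is dim, with its controls below the log2 value of 5 that a gene had to reach on at least 3 arrays to be tested, so that the size of its change is uncertain, and it rests on 1 probe set. With arrays of the brighter set alone, 2 per group and without sex as a covariate, its change was 1.16 with a limma adjusted p of 0.106. With a filter at 6 in place of 5 it was not tested.

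**Figure D1:**
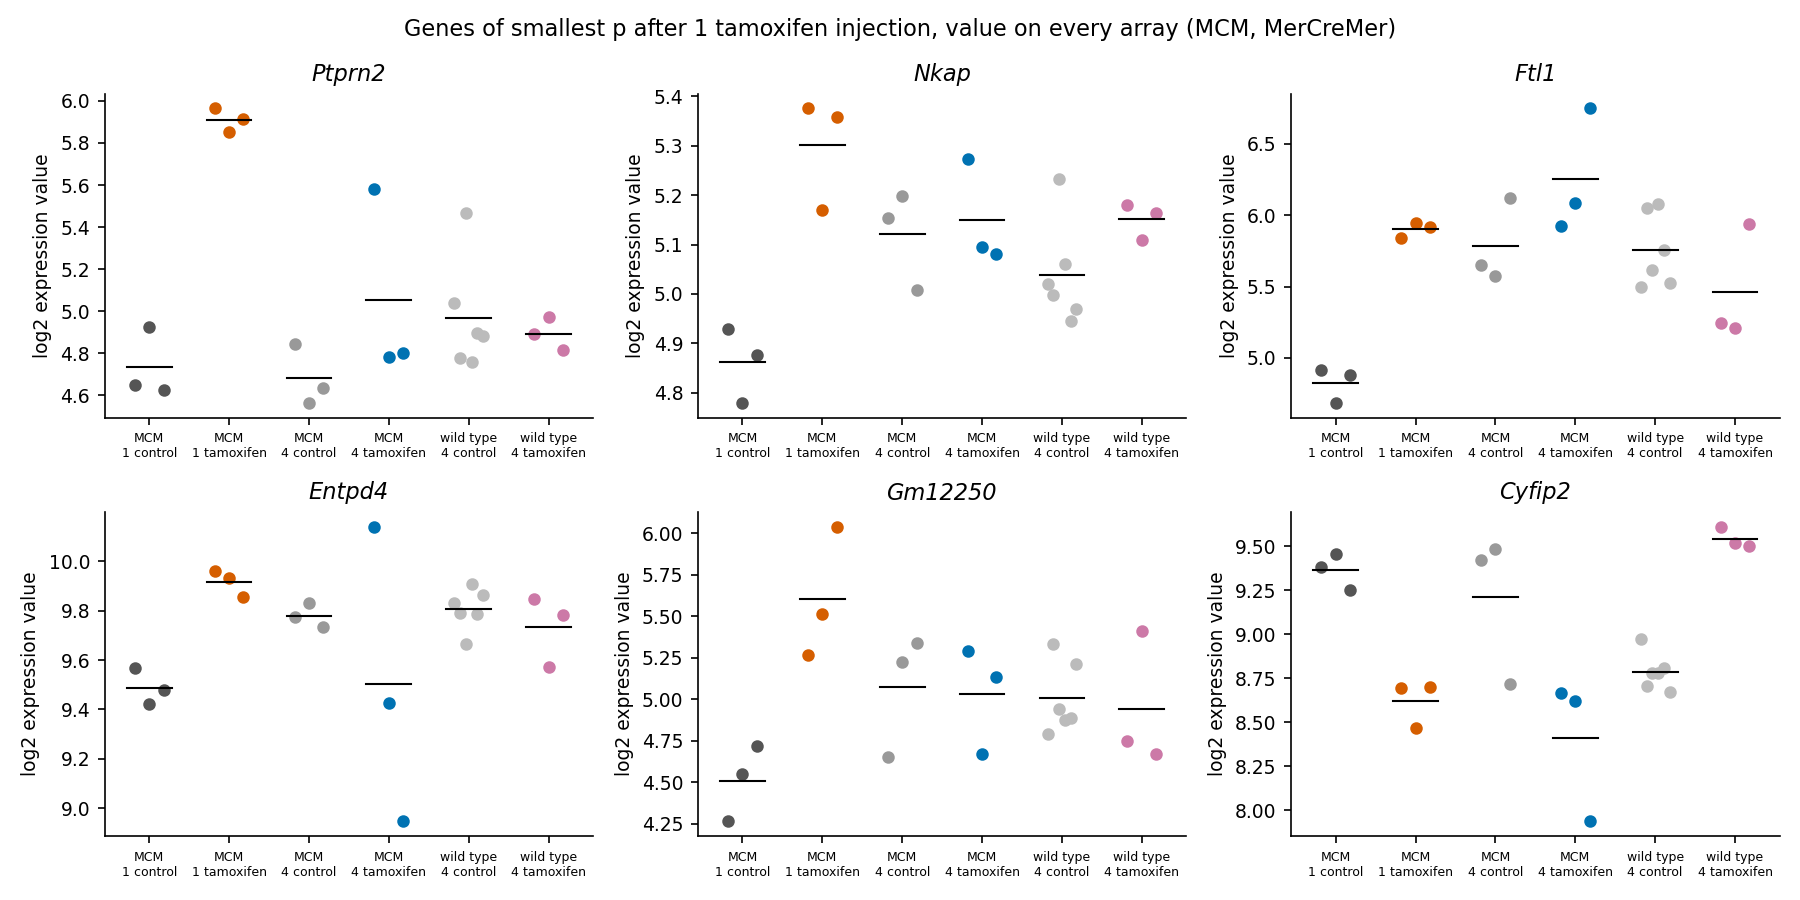
Log2 expression value (vertical axes, a range of its own for each gene) of 6 genes on every array of the 6 groups; points are arrays and bars are group means. Ptprn2 separates the MerCreMer 1 tamoxifen arrays (5.85 to 5.97) from all others, while for Ftl1 the 1 control arrays (4.69 to 4.91) lie below every other group.

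The other genes of smallest p did not pass the threshold and are given as values. Nkap, a repressor in Notch signalling and a splicing-related nuclear protein, lay at 4.93, 4.78 and 4.88 in the controls and at 5.38, 5.17 and 5.36 after tamoxifen, a difference of 0.44 (limma adjusted p = 0.0907). Ftl1, the ferritin light chain that stores iron, lay at 4.91, 4.69 and 4.88 and at 5.84, 5.95 and 5.92, a difference of 1.08 (adjusted p = 0.0948). The 2 groups did not overlap in either gene, but the control side is the unusual one for Ftl1. The 4-control MerCreMer hearts held it at 5.57 to 6.12 and the wild-type controls at 5.50 to 6.08, around the level of the tamoxifen arrays. This probe set was dim for an abundant mRNA, and Ftl1 has near-identical copies in the mouse genome, so its value is uncertain. Entpd4, a Golgi nucleoside diphosphatase, was the bright gene of this group at 9.57, 9.42 and 9.48 against 9.96, 9.93 and 9.86, a difference of 0.43 (adjusted p = 0.0948). Its 4-control hearts, at 9.73 to 9.83, again lay nearer to the tamoxifen arrays than to the single-injection controls.

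Gm12250, an interferon-inducible immunity-related GTPase, lay at 4.27, 4.55 and 4.72 in the controls and at 5.27, 5.51 and 6.04 after tamoxifen. The difference was 1.09 (95% interval 0.67 to 1.51, limma adjusted p = 0.101) with no overlap. Its controls, like those of Ptprn2, Nkap and Ftl1, lay below the filter value of 5, so that the size of its change is uncertain. Of the remaining higher genes of smallest p, these differed by less: Mcm6, a subunit of the replicative helicase, by 0.45, Rtn1, a reticulon of the endoplasmic reticulum, by 0.35, Tnfrsf22, a decoy receptor of the TNF family, by 0.30, and Klhl23 by 0.28, all with a limma adjusted p of 0.285.

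On the lower side Cyfip2, a subunit of the WAVE complex that drives branched actin assembly, lay at 9.38, 9.46 and 9.25 in the controls and at 8.70, 8.47 and 8.70 after tamoxifen, a difference of -0.74 (95% interval -1.04 to -0.45, limma adjusted p = 0.117). The groups did not overlap, yet hearts of other groups held both levels. The 4-control MerCreMer arrays were at 9.43, 9.48 and 8.72, the wild-type controls at 8.67 to 8.97 and the wild-type tamoxifen hearts at 9.50 to 9.61. 3110040M04Rik differed by -0.67 (adjusted p = 0.254). Gchfr, the feedback regulator of GTP cyclohydrolase, Ankrd34a and Bhmt, the betaine-homocysteine methyltransferase, each differed by -0.46. Il17c, an epithelial cytokine, Oprd1, the delta opioid receptor, Trim46, Gpbar1, a bile acid receptor, and Cdh24, a cadherin, differed by -0.41 to -0.30, with adjusted p from 0.285 to 0.436. Of these lower genes, Cyfip2 and 3110040M04Rik alone had a control mean above 6.

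Because the arrays called so little, the size of change they could have missed was computed for each gene from its 95% interval. The median half-width was 0.185 log2 units, and the far end of the interval lay at a median of 0.261, a 1.2-fold change. In 10647 genes (93.5%) the whole interval lay within 0.5 log2 units, or 1.41-fold, in either direction, and in 11315 (99.4%) within 1. The remaining 69 genes had an interval reaching beyond 1. Intervals widened to hold for all genes at once (Bonferroni) had a median half-width of 0.589, with 9916 genes (87.1%) within 1 and 11272 (99.0%) within 2.

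The change itself had a median of 0.02 over all genes, and 95% of genes lay between -0.22 and 0.26. A difference of 0.5 or more was seen in 47 genes (0.413%) and of 1 or more in 5 (0.0439%), of which Ptprn2 alone was called. To be called on its own at these spreads, the median gene needed a change of 0.59 (1.5-fold). Had 100 genes passed together, 0.38 (1.31-fold) would have been enough. Bright genes were bounded more tightly: the median half-width was 0.253 in genes with a mean level under 5 and 0.140 in genes at 9 and over.

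**Figure D2:**
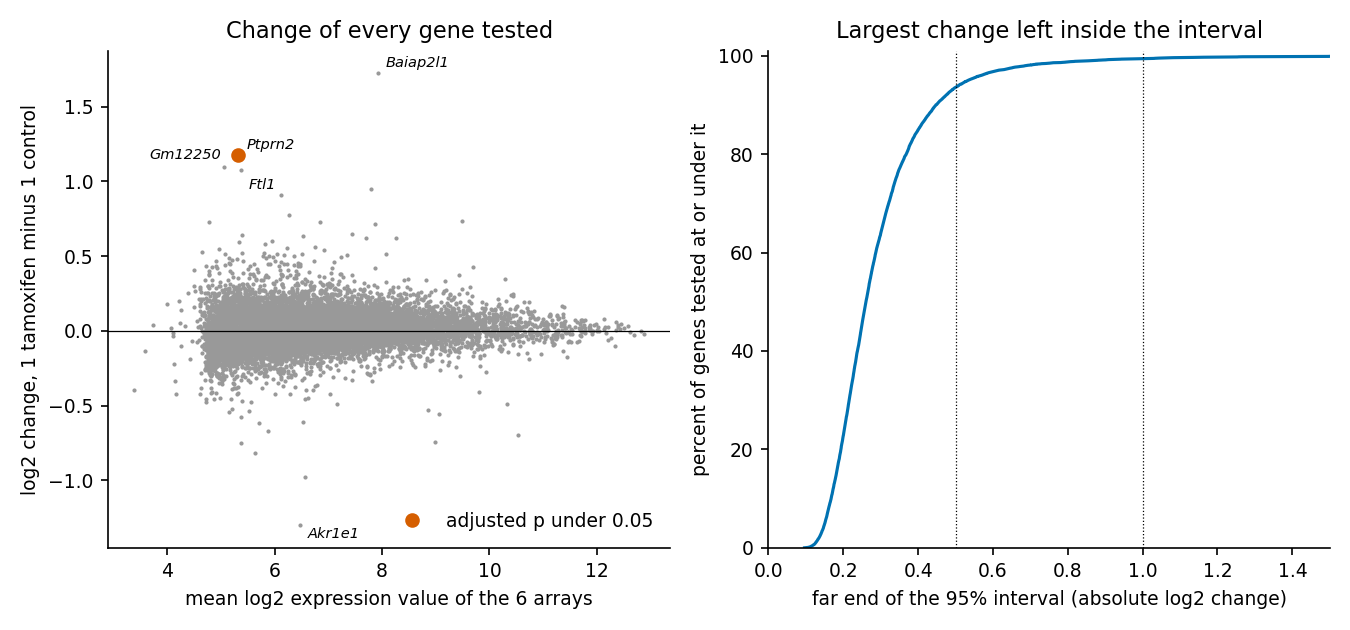
Left, log2 change after 1 tamoxifen injection (vertical axis) against the mean log2 expression value of the 6 arrays (horizontal axis) for 11384 genes, with the called gene in orange. Right, percent of genes (vertical axis) whose 95% interval ends at or under a given absolute log2 change (horizontal axis); 93.5% end within 0.5 and 99.4% within 1, the dotted lines.

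The genes that stayed poorly bounded differed strongly between hearts of 1 group. The atrial light chains Myl7 (0.91, interval -1.55 to 3.36) and Myl4 (0.65, interval -1.22 to 2.51) were among the 3 widest. Baiap2l1, an actin-bundling adaptor of the membrane, lay at 8.69, 6.27 and 6.21 in the controls and at 8.65, 8.62 and 9.07 after tamoxifen. One control heart thus matched the treated hearts, and the 4-control hearts were at 6.32 to 6.45. Its change of 1.72 had an interval of 0.10 to 3.34. The matching control heart, replicate 1, is the male and the dimmer array of its group. Within the brighter arrays alone, fitted without sex as a covariate, Baiap2l1 was the called gene in place of Ptprn2. Its change there was 2.62 (limma adjusted p = 0.00300). That run compared 2 female control hearts with 1 male and 1 female tamoxifen heart. Akr1e1, an aldo-keto reductase, ran the other way, at 7.10, 7.10 and 7.14 in the controls and at 6.96, 4.90 and 5.58 after tamoxifen (interval -2.36 to -0.24), while the 4-control hearts were at 5.18 to 5.95. With female arrays only Akr1e1 was called, at -1.88 (limma adjusted p = 0.00559). Pdk4, the kinase that shuts glucose oxidation down in fasting, lay at 11.19, 9.93 and 11.50 in the controls and at 11.05, 10.26 and 9.22 after tamoxifen, overlapping throughout (interval -1.68 to 0.28).

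Of genes of the heart's own machinery, 16 cardiomyocyte markers were tested, and for all 16 the interval lay within 0.5, with changes from -0.06 to 0.10. Myh6, the adult myosin heavy chain whose promoter drives the transgene, was 12.62 ± 0.0391 after control and 12.62 ± 0.0128 after tamoxifen (SD, n = 3), with an interval of -0.11 to 0.09. Atp2a2, the calcium pump of the sarcoplasmic reticulum, had an interval of -0.12 to 0.07. Its inhibitor Pln had -0.07 to 0.13, and the release channel Ryr2 had -0.07 to 0.16. All 56 tested genes of oxidative phosphorylation and all 22 of the TCA cycle were within 0.5 as well, with medians of 0.02 and 0.01. So were 32 of 35 sarcomere genes and 18 of 22 ion channel genes, where 93.5% of all genes were.

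No calcium handling or ion channel gene was called. Of 19 calcium-handling genes 4 had an unadjusted p under 0.05, all higher, where 4.67% of all genes were: Slc8a1, the sodium-calcium exchanger (0.23), Hrc, the histidine-rich calcium-binding protein of the reticulum (0.17), Cacna1c, the pore of the L-type calcium channel (0.16), and S100a1 (0.12). Their list had a median of 0.04, and all 19 were bounded within 0.5. Among 22 ion channel genes 2 had such a p, both higher. Kcnj2, the inward rectifier potassium channel, lay at 7.41, 7.53 and 7.60 in the controls and at 7.77, 7.83 and 7.89 after tamoxifen, a difference of 0.32 without overlap (limma adjusted p = 0.285). Kcnq1, another potassium channel, differed by 0.17. Kcnj5, also a potassium channel, was lower by a difference of -0.11 without overlap (interval -0.29 to 0.06). The 4-control MerCreMer hearts lay near the tamoxifen level for Slc8a1 (means of 9.56 in the 1 control, 9.79 in the 1 tamoxifen and 9.76 in the 4-control hearts), Hrc (10.43, 10.60 and 10.60), S100a1 (10.72, 10.84 and 10.82) and Kcnq1 (7.81, 7.98 and 7.99). Against the single-injection controls 3 of the 19 and 2 of the 22 were higher in the 4-control hearts at an unadjusted p under 0.05, and 0 were lower. In that comparison 6.88% of all genes had such a p in either direction. For the single tamoxifen dose against its controls, the model with all 21 arrays gave 0 of 19 and 0 of 22 higher at an unadjusted p under 0.05.

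Stress genes of the ventricle gave few differences. Of 24 genes of cardiac stress and the foetal programme 1 had an unadjusted p under 0.05, the intercalated disc protein Xirp1 (0.19), where 7.19% of all genes had one. Nppa, the atrial natriuretic peptide, lay at 10.35, 10.50 and 10.41 in the controls and at 10.66, 11.03 and 10.03 after tamoxifen, overlapping, with an interval of -0.58 to 0.89. Nppb, its ventricular counterpart, lay at 9.23, 9.35 and 9.18 and at 9.99, 9.49 and 9.40. The groups did not overlap, but the interval ran from -0.47 to 1.21. Acta1, the skeletal actin re-expressed in stressed myocardium, lay at 10.91, 10.32 and 10.47 and at 10.73, 10.71 and 8.79, with 1 tamoxifen heart far below the rest (interval -1.14 to 0.16). For Nppa, Nppb and Acta1 the intervals thus reached to about 1 log2 unit or beyond it. In the list as a whole 15 of 24 intervals lay within 0.5 and 21 within 1, where 93.5% and 99.4% of all genes did.

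Genes that respond to DNA damage are of interest because Cre cuts DNA. Of 26 p53 targets 1 had an unadjusted p under 0.05, Tap1 (0.45), a peptide transporter that is also an interferon target, and 25 of 26 were bounded within 0.5. Mdm2, the p53-induced ligase, had an interval of -0.21 to 0.08. Of 26 genes of DNA damage response and repair 2 were higher, Topbp1 (0.24) and Rad50 (0.19). Oestrogen receptor and its responsive genes gave 0 of 23 with limma at either an adjusted or an unadjusted p under 0.05. The probe set of Esr1 had an interval of -0.22 to 0.44. Its mean was 7.60 in the 1 control and 7.71 in the 1 tamoxifen hearts, against 5.71 in the wild-type control and 6.47 in the wild-type tamoxifen hearts. The transgene holds oestrogen receptor domains, and whether this probe set also reads the transgene was not tested. Chaperones gave 3 lower of 27 at the unadjusted threshold, Hspe1 (-0.27), Stip1 (-0.19) and Hspd1 (-0.16), of which Hspe1 and Hspd1 form the mitochondrial chaperonin. Over all genes 4.67% were higher and 2.52% lower at that threshold, and none of these lists held a called gene.

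**Figure D3:**
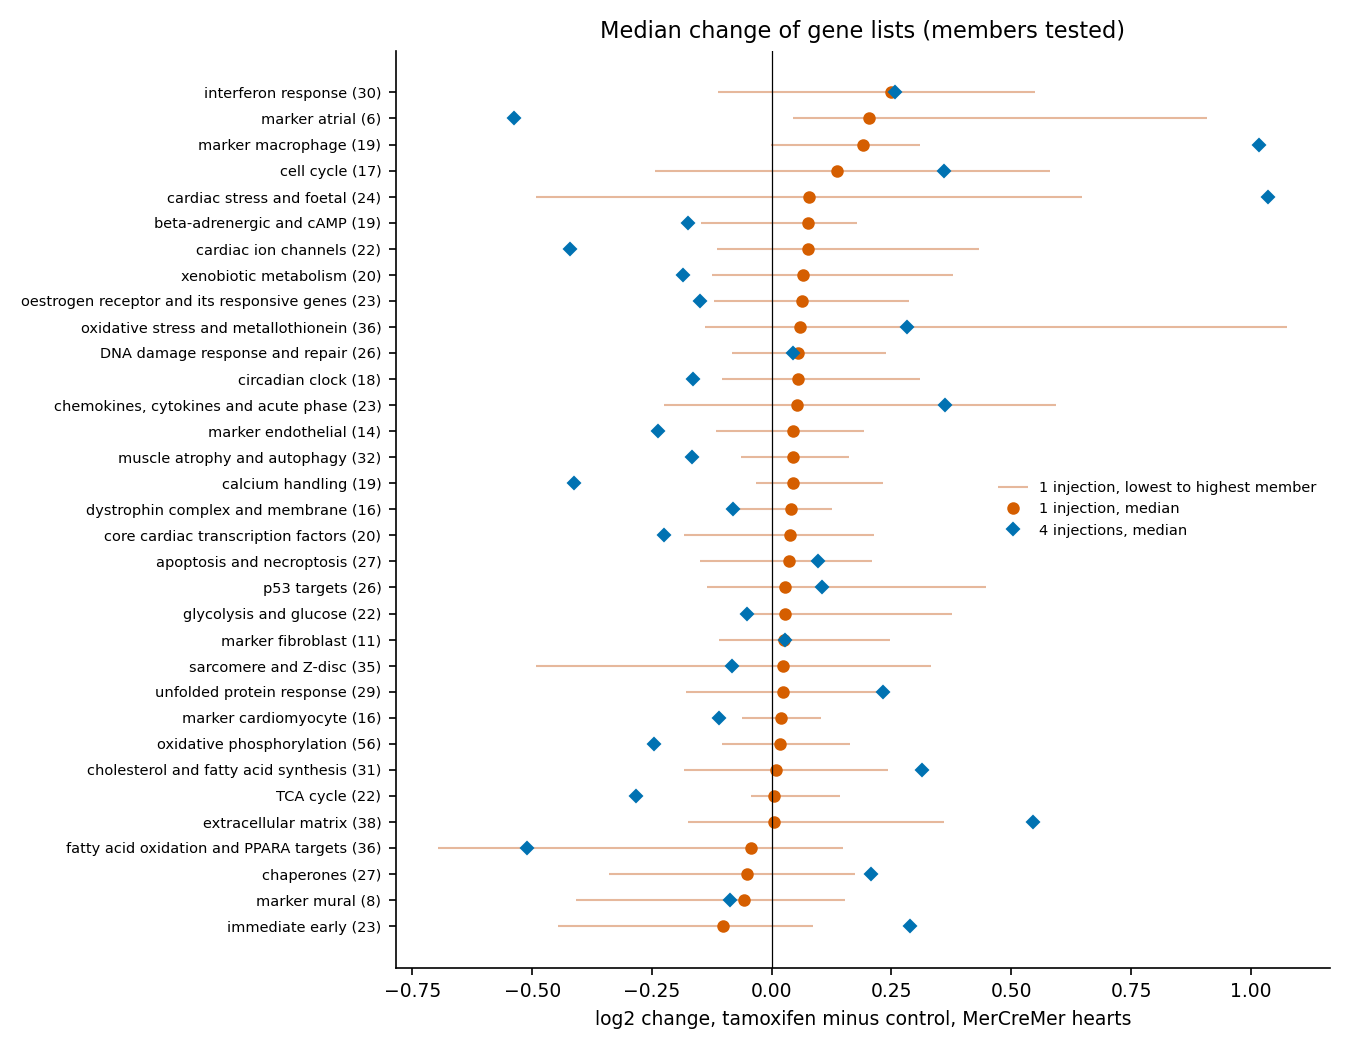
Median log2 change (horizontal axis) of each gene list after 1 (orange circles) and after 4 (blue diamonds) tamoxifen injections in MerCreMer hearts, with the number of members tested in brackets and lines from the lowest to the highest member after 1 injection. Lists with at least 6 members tested are drawn, and the interferon list has the highest median after 1 injection, 0.248, and lies at 0.256 after 4.

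Among the lists with at least 6 members tested, the interferon response had the highest median. Interferons induce antiviral genes through a response element in their promoters. Of the 40 genes listed 34 were measured and 30 were bright enough to test; 0 were called by limma at an adjusted p under 0.05. At an unadjusted p under 0.05, 13 of 30 were higher and 0 lower, where 4.67% of all genes were higher. The median of the 30 was 0.25 against 0.02 over all genes, and in 14 of 30 every tamoxifen array lay above every control array, where 6.88% of all genes did; in 0 of 30 every tamoxifen array lay below every control array, where 3.51% of all genes did. In the model with all 21 arrays 7 of 30 had such a p, and within the brighter arrays, without sex as a covariate, 8 of 30.

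Among the sensors of viral RNA, Ifih1, also called MDA5, had the smallest p of the list. It lay at 5.67, 5.67 and 5.74 in the controls and at 5.94, 6.06 and 6.17 after tamoxifen, a difference of 0.36 (95% interval 0.18 to 0.54, limma adjusted p = 0.285). The other sensor, Ddx58 or RIG-I, differed by 0.14. The antiviral effectors Ifit2 (0.49), Ifit3 (0.49) and Ifit1 (0.55), which bind foreign RNA and lie in a cluster on chromosome 19, differed by like amounts. Ifit2 was at 5.49, 5.55 and 5.73 and at 5.89, 6.17 and 6.18, without overlap. Rsad2, or viperin, was at 6.12, 6.09 and 6.09 and at 6.56, 6.58 and 6.29. Both Ifit2 and Rsad2 thus separated the groups, by less than 0.5 log2 units.

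Of the regulators, Irf7, which amplifies the response, was at 6.14, 6.18 and 6.33 in the controls and at 6.47, 6.68 and 6.62 after tamoxifen, a difference of 0.37. Irf9 (0.21) and Stat2 (0.20), subunits of the factor that binds the response element, and Usp18 (0.38), the protease that dampens the response, were higher too, Stat2 at an unadjusted p above 0.05. Of the antigen presentation genes Tap1 differed by 0.45 and the others, Psmb9, Psmb8 and B2m, by 0.18, 0.20 and 0.24 with intervals that held 0. The members lower after tamoxifen were Oas1a (-0.11), Oasl1 (-0.02) and Irf8 (-0.00), each with an interval around 0. Cxcl9, an interferon-γ-induced chemokine outside the list, was at 4.84, 5.35 and 4.90 and at 5.91, 5.38 and 5.58, a difference of 0.59 (adjusted p = 0.436).

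The mean of the 30 members was 6.01, 6.10 and 6.10 on the control arrays and 6.23, 6.36 and 6.44 on the tamoxifen arrays. The groups did not overlap, and the 4-control MerCreMer hearts, at 6.03 to 6.09, lay with the single-injection controls. With those hearts in place of the single-injection controls 14 of 30 were higher at an unadjusted p under 0.05 and the median was 0.28. The share over all genes with those hearts as controls is not given here. Other groups reached the same height unevenly: the MerCreMer 4 tamoxifen arrays were at 6.51, 6.10 and 6.47 and the wild-type tamoxifen arrays at 5.96, 6.53 and 6.21, against 5.86 to 6.19 in the wild-type controls. In wild-type hearts 3 of 30 members were higher at an unadjusted p under 0.05, with a median of 0.14, where 3.66% of all genes were. The difference between 4 and 1 injections was called for 0 of the 30, where it was called for 5.78% of all genes. After 4 injections 8 of the 30 were called higher, where 1583 of all 11384 genes were.

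**Figure D4:**
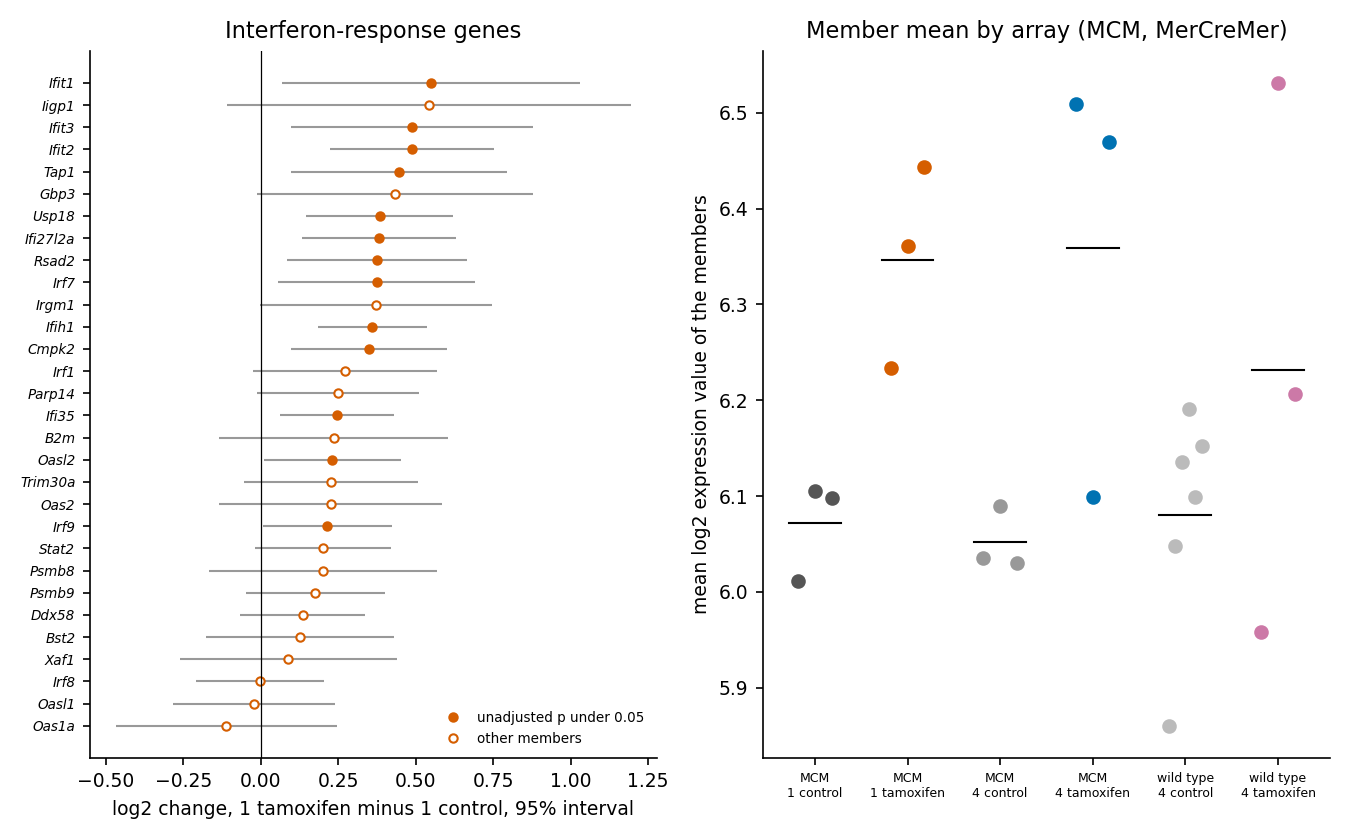
Left, log2 change after 1 tamoxifen injection with its 95% interval (horizontal axis) for the 30 interferon-response genes tested (vertical axis); filled points have an unadjusted p under 0.05. Right, mean log2 expression value of the 30 genes (vertical axis) on every array of the 6 groups, points being arrays and bars group means; the MerCreMer 1 tamoxifen arrays (6.23 to 6.44) lie above the 1 control arrays (6.01 to 6.10).

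The promoters of several of these genes hold the core of the interferon-stimulated response element. The 250 bases before the start site, from RefSeq on GRCm38.p6, were searched for GAAANNGAAA on both strands, overlapping matches counted. The core was found in 10 of the 25 tested members with a promoter sequence (40.0%), against 258 of 9124 tested genes (2.83%) and 936 of 27025 genes in all (3.46%). It was also found in Gm12250, 1 of 8 of the 10 higher genes of smallest p that had a sequence, and in 0 of the 10 lower ones. The palindromic oestrogen response element GGTCANNNTGACC was found in 18 of 27025 promoters and in 0 of all these sets. A match is a string of letters and no evidence of binding. The stretches below are shown for members of different roles with the matched core in capitals, written 5′ to 3′ on the gene's own strand:
Ifit1, chr19:34640639-34640888, plus strand: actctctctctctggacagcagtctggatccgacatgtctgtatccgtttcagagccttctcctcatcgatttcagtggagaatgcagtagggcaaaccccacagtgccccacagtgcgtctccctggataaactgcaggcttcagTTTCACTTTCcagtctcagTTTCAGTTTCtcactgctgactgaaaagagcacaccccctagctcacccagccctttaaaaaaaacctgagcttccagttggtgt
Ifit3, chr19:34583279-34583528, plus strand: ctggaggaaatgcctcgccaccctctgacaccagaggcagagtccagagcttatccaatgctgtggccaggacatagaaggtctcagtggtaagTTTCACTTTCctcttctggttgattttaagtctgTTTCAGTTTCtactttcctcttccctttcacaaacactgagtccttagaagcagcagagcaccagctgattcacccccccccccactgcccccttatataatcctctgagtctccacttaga
Rsad2, chr12:26456453-26456702, minus strand: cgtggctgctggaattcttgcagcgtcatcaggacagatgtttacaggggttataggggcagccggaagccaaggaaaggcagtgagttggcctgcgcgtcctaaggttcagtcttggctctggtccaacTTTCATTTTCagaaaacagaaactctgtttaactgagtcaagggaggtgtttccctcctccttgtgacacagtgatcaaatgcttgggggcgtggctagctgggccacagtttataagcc
Irgm1, chr11:48871421-48871670, minus strand: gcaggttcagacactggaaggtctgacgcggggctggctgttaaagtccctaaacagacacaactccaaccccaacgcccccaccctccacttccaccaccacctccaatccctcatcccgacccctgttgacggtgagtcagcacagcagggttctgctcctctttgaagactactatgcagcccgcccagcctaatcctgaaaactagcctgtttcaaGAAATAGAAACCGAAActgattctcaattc
Gm12250, chr11:58183593-58183842, plus strand: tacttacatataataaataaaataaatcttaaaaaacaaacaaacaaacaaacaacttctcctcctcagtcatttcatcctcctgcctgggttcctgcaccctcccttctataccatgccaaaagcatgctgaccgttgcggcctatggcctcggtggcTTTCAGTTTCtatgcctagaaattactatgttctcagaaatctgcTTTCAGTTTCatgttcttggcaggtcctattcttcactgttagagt
Ifit1 and Ifit3 each carry a pair of cores, read on the opposite strand, and differed by 0.55 and 0.49. Rsad2 carries 1 and differed by 0.38, and Irgm1, an immunity-related GTPase of autophagy, carries overlapping cores on the gene's strand and differed by 0.37. Gm12250, which was picked by its p and whose controls lay below a log2 value of 5, has a pair of identical cores. It differed by 1.09, the widest of the 5. The other members of the list with a core were B2m, Bst2, Gbp3, Oas1a, Stat2 and Trim30a. Among them Oas1a was lower after tamoxifen, and B2m and Stat2 had an unadjusted limma p above 0.05. Whether the number of cores bears on the change was not tested. Ifih1 and Ifit2, the members with the smallest p, have no match in this window.

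No macrophage marker was called. Of 19 tested, 4 were higher at an unadjusted p under 0.05, where 4.67% of all genes were, and 0 lower, 18 of 19 changes were above 0, where 57.4% of all genes were, and the median was 0.19. Itgam, the integrin of myeloid cells, was at 5.31, 5.19 and 5.21 in the controls and at 5.37, 5.59 and 5.67 after tamoxifen, a difference of 0.31 (limma adjusted p = 0.405) without overlap. Cd68, a lysosomal macrophage protein, was at 6.62, 6.30 and 6.26 and at 6.57, 6.80 and 6.56, with overlap and a difference of 0.25. Mrc1, the mannose receptor, differed by 0.30 and Tyrobp, a signalling adaptor, by 0.27, while the monocyte-lineage receptor Csf1r (0.01) and the complement genes C1qc (0.05) and C1qb (0.10) had intervals that held 0. The mean of the 19 was 6.24 to 6.39 in the controls and 6.45 to 6.55 after tamoxifen. In the model with all 21 arrays 0 of 19 had such a p. In wild-type hearts, which hold no Cre, 5 of 19 were higher after 4 tamoxifen injections at an unadjusted p under 0.05, where 3.66% of all genes were, with a median of 0.13. Lymphocyte and neutrophil markers were all too dim to test. More cells of a type and more RNA per cell cannot be told apart in a piece of ventricle, and the part of macrophages in the interferon values was not tested. Endothelial (0 of 14) and fibroblast (0 of 11) markers gave no gene at an unadjusted p under 0.05 and no called gene with limma.

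The 4-injection comparison gave the yardstick for what the single dose might have missed. The groups it compares share no array with the single-dose comparison. The spread used to call its genes was fitted to all arrays together, those of the single-dose comparison included. The choice of its genes was therefore not independent of the spread behind the single-dose intervals. After 4 injections 2654 genes (23.3%) were called, and 1879 (16.5%) without MerCreMer 4 tamoxifen replicate 3. The count was 637 with a weight for each group and 1502 with female arrays only. After 1 injection the interval of 2499 of the 2654 (94.2%) lay within 0.5 log2 units, close to the 93.5% of all genes. Of the 281 genes that changed by at least 1 after 4 injections, 203 (72.2%) were within 0.5 and 270 within 1.

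The 281 were also set against their own 4-injection change. In 280 the single-dose interval ended short of the 4-injection change, and in 261 (92.9%) it ended short of 50% of it. Over all genes tested these shares were 49.2% and 26.5%. The 281 were chosen for a large 4-injection change, so that their high shares follow in part from the choice. The median single-dose change was 0.165% of the 4-injection change, and the median far end, in the direction of that change, was 20.4%. The direction was shared by 143 of 281 (50.9%), and 19 had an unadjusted p under 0.05 in that direction and 15 in the opposite one. Over all 11384 genes tested the direction was shared by 52.0%, and 470 and 349 had such a p. The changes correlated across the 281 genes at r = 0.05 and rho = 0.11, as a description of genes that are not independent of each other. The difference between the 4-injection and single-dose changes was itself called in 161 of 281 (57.3%) and in 658 of all genes (5.78%). Without replicate 3, 128 genes changed by at least 1, of which 126 had an interval short of that change and 99 a called difference.

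**Figure D5:**
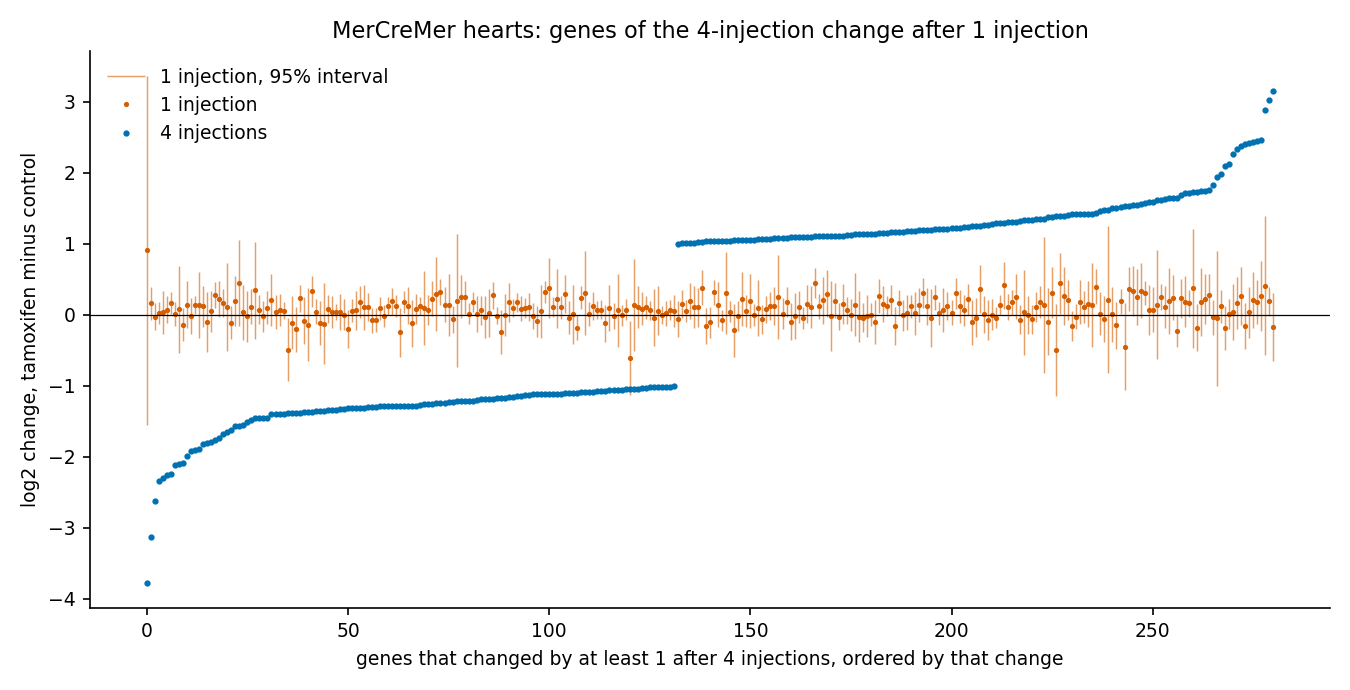
Log2 change (vertical axis) of the 281 genes that changed by at least 1 after 4 tamoxifen injections (blue), ordered by that change (horizontal axis), with the change of the same gene after 1 injection (orange) and its 95% interval (orange line). The single-dose values scatter around 0 on both sides, and 203 of 281 intervals lie within 0.5.

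The difference between the 4-injection and single-dose changes was called in 8 of 19 calcium-handling and 8 of 22 ion channel genes. Over all genes tested it was called in 5.78%. Cacna1c lay at 9.40, 9.53 and 9.47 in the single-injection controls and at 9.54, 9.67 and 9.68 after the single dose, a difference of 0.16 (interval 0.01 to 0.32). After 4 injections it fell by 2.24. The groups did not overlap after the single dose, but they lay in the opposite order. Fgf13, a modulator of sodium channels, fell by 2.11 after 4 injections and differed by 0.02 (interval -0.15 to 0.19) after 1. Slc8a1 fell by 1.38 and differed by 0.23 (0.04 to 0.42), and Kcnj2 fell by 1.12, with a change of -0.41 without replicate 3, and differed by 0.32 (0.16 to 0.48). Ryr2 fell by 1.34 and differed by 0.04, and Camk2d, the calcium-dependent kinase of the myocyte, fell by 1.21 and differed by 0.02 (-0.13 to 0.16). For all of these but Kcnj2 (limma adjusted p = 0.0806) the difference between the 4-injection and single-dose changes was called.

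Such a difference was called in 7 of 35 sarcomere genes and 4 of 16 genes of the dystrophin complex. It was called in 3 of 36 of fatty acid oxidation, 1 of 56 of oxidative phosphorylation and 0 of 22 of the TCA cycle. The share over all genes tested was 5.78%. The genes named next were picked for their 4-injection change. Dmd, dystrophin, lay at 8.54, 8.39 and 8.56 in the controls and at 8.45, 8.55 and 8.58 after the single dose, where 4 injections lowered it by 2.35. The groups overlapped, and the interval of -0.12 to 0.18 ended far short of that fall. Asb15 and Asb14, muscle subunits of ubiquitin ligases, changed by -2.62 and -3.13 after 4 injections, Asb14 by -1.97 without replicate 3, and differed by -0.03 and 0.16 after 1. Ppargc1a, the coactivator of mitochondrial biogenesis, fell by 1.34 and differed by 0.03 (-0.19 to 0.26). Its partner receptor Esrrg fell by 1.00 and differed by 0.02 (-0.14 to 0.18). Angpt1, which activates the receptor Tie2 on endothelial cells, fell by 2.10 and differed by 0.08, with a wider interval of -0.54 to 0.69.

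The genes that 4 injections raised likewise lay near their controls after 1. Hmox1, the inducible haem oxygenase, rose by 2.43 after 4 injections. It lay at 6.37, 5.25 and 6.06 in the single-injection controls and at 6.23, 6.06 and 6.03 after the single dose, overlapping, with a difference of 0.21 (-0.18 to 0.61). Tnnt1, the slow skeletal troponin T, rose by 3.03 and lay at 6.34, 6.25 and 6.27 and at 6.25, 6.76 and 6.44, a difference of 0.19 (-0.01 to 0.40). Gpnmb, a glycoprotein of phagocytic macrophages, rose by 2.45 and differed by 0.18 (-0.14 to 0.50). Timp1, the inhibitor of matrix metalloproteinases, rose by 3.16, and by 1.68 without replicate 3, and differed by -0.17 (-0.66 to 0.31). Lcn2, an acute-phase siderophore binder, rose by 2.40 and differed by -0.16, and Ccl12, a monocyte chemoattractant, rose by 2.47 and differed by 0.26 (-0.23 to 0.75). Atf3, the stress-induced transcription factor, rose by 1.73 and differed by -0.18 (-0.51 to 0.15).

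Some genes of the 4-injection set had an unadjusted p under 0.05 after the single dose in the same direction, none of them called. Mcm6 differed by 0.45 after 1 injection and by 1.10 after 4. Itgam (0.31 and 1.57), Cd68 (0.25 and 1.62), Mrc1 (0.30 and 1.22), Plek, a phagocyte signalling protein (0.27 and 1.15), Lcp1, the leukocyte plastin (0.19 and 1.52), and Pf4, a chemokine of platelets and macrophages (0.31 and 1.20), are genes of myeloid or platelet cells. Ifi27l2a (0.38 and 1.03) and Ifi30 (0.31 and 1.04) are interferon-inducible. Without replicate 3 the 4-injection change was 0.62 for Mcm6, 0.95 for Itgam, 0.45 for Plek and 0.54 for Ifi30. Those with the opposite order included, beside Cacna1c, Slc8a1 and Kcnj2, Fhod3, a sarcomeric formin (0.14 after 1 and -1.91 after 4), Ctnna3, a catenin of the intercalated disc (0.27 and -1.77), Tnni3k, a cardiac kinase (0.18 and -1.28), and Corin, the protease that activates natriuretic peptides (0.29 and -1.10). Both sets were picked by their p and are given as values.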

How the data were processed

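Total RNA of 21 left ventricles was hybridised to Affymetrix arrays, 1 sample per array. The authors deposited log2 values, which the submitters' processing notes credit to RMA; its version, the array batch and the scan date are not given in the sources read here. RMA corrects background, makes the arrays' distributions equal and summarises probe sets. Array medians were 4.57 to 4.72, and the values were used as deposited. Precision is limited by the number of arrays.

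Of 34760 probe sets, 21640 had 1 gene in the platform table, 1321 several and 11799 none listed. For each of 19937 genes the brightest probe set with 1 gene was kept, and 99.6% of the Entrez identifiers matched RefSeq (GRCm38.p6). Genes at a log2 value of 5 or more on at least 3 arrays were tested, 11384 in all. Group means with sex as a covariate were fitted with limma 3.58.1 (lmFit, eBayes) in R 4.3.3 to 18 arrays in 5 groups, which share 1 spread (12 residual and 4.35 prior degrees of freedom). The 4-injection change and its difference from the single-dose change came from the same model on all 21 arrays. Benjamini-Hochberg adjustment ran over all genes tested, genes were called at an adjusted p under 0.05, and 95% intervals were taken from the fit. The model was tested on simulated data. Nothing in the labels says outright that replicates were separate animals, so p values measure the spread between these samples.

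Named genes were all called genes, the 10 of smallest p in each direction, the 10 highest and 10 lowest changes after 4 injections whose groups did not overlap, the called or smallest-p member of each of 41 gene lists and a panel; further members of lists and genes singled out in the text were chosen after their values were seen. The comparison, the lists and the rule for the fit were chosen with earlier results of these data known.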

Additional observations from a re-analysis of the deposited data

Results flagged for a closer look

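In 27 named genes the tamoxifen change after 4 injections differed from that after 1 injection in MerCreMer hearts. The difference was called by limma's test in all 21 arrays at an adjusted p under 0.05, and the 2 comparisons share no array. Over all 11384 genes tested it was called in 658 (5.78%). Genes named for a large 4-injection change are among the 27, so that their called differences follow in part from the choice. The differences given are the 4-injection change minus the single-dose change in log2 units. Genes of excitation, calcium handling and membrane support were lower after 4 injections relative to 1: Cacna1c by -2.40, Dmd by -2.38, Fgf13 by -2.13, Slc8a1 by -1.61, Ryr2 by -1.39, Camk2d by -1.22 and Pln by -0.80. The same held for Asb14 (-3.29), Asb15 (-2.59), Yipf7, a Golgi-associated protein of muscle (-2.34), Angpt1 (-2.17), Ppargc1a (-1.38) and Esrrg (-1.02). Genes of stress, damage and inflammation were higher: Tnnt1 by 2.83, Lcn2 by 2.56, Gpnmb by 2.27, Hmox1 by 2.22, Ccl12 by 2.21, Atf3 by 1.91, Acta1 by 1.88, Cd68 by 1.37 and Mdm2 by 0.40. Without MerCreMer 4 tamoxifen replicate 3 the 4-injection change itself was -0.48 in place of -0.77 for Pln, -1.97 in place of -3.13 for Asb14 and 1.10 in place of 1.62 for Cd68.

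Genes of smallest p after the single dose also appear, with the larger value after 1 injection: Gm12250 (-1.14), Ptprn2 (-0.80), Rtn1 (-0.48) and Nkap (-0.41), and on the lower side Ankrd34a (0.75). These last 5 were picked for their single-dose values, so that a difference in this direction follows in part from the choice. No array stood far from the others in the wild-type control group, the only group large enough to check, in any of the 20 genes checked there.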

How the results depend on the processing

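The count of called genes was 2 with only the 6 arrays compared (Ptprn2 and Ftl1) and 2 with robust variance estimates (Ptprn2 and Entpd4). With female arrays only it was 7, of which Ptprn2, Snap91 and Mrpl20 were higher and Akr1e1, Dnajc28, Ephb1 and Npffr1 lower. It was 0 with a filter at 6, which drops Ptprn2, although limma then gave 625 genes an unadjusted p under 0.05. Within the brighter arrays, fitted without sex as a covariate, it was 1, Baiap2l1 (2.62, limma adjusted p = 0.00300) in place of Ptprn2. It was 1 to 2 when each replicate was left out. With the replicate number as a block it was 0, with Ptprn2 at 1.18 (adjusted p = 0.0760) and 651 genes at an unadjusted p under 0.05. Same-numbered arrays correlated in their deviations at 0.277, 0.0696 and 0.249, so the numbers do not clearly pair the samples, although each array correlated best with its own number. Where Ptprn2 was tested its change was 1.08 to 1.30, with an adjusted p of 0.000132 to 0.106.

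Without the filter on low values 17860 genes of a larger number tested were bounded within 0.5, 667 genes were higher and 821 lower at an unadjusted p under 0.05, and with all 21 arrays the latter were 245 and 135. Leaving out each replicate gave 10107 to 10400 genes within 0.5. Genes called after 4 injections and within 0.5 after 1 numbered 565 with group weights and 1324 with female arrays only, where fewer were called after 4 injections (637 and 1502), 203 for changes of at least 1, and 2279 to 2397 when each replicate was left out. Called differences between 4 and 1 injections numbered 334 with group weights, 139 with female arrays and 775 without MerCreMer 4 tamoxifen replicate 3. No called value changed direction under any alternative run. The use of the 4-control hearts as controls and the omission of that replicate were chosen after seeing the data. Dim genes, below about 5, are bounded least.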
